A study of Gallus gallus with 2 samples.

Results

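The genes described here encode the proteasome, the protease complex that degrades ubiquitin-tagged proteins, together with its activators, its inhibitor and its assembly factors. They were all the annotated genes whose symbol begins with PSM, a letter from A to G and a digit, which gave 37 of the 16737 genes in the tables. All 37 had a single row, and all passed the filter on low values, a mean over both libraries of 1 FPKM or more, as did 10824 genes in all. FPKM counts sequenced fragments per length of transcript and relative to all fragments mapped. Levels can so be set side by side between genes, as far as the annotated transcript models are right. Of the symbols listed for these roles, 12 matched no row, among them the catalytic subunits PSMB5 and PSMB6, the ATPase PSMC4 and the activators PSME1 and PSME2, and these are not analysed here. PSMC3IP fits the spelling but is a partner of meiotic recombination, not a proteasome subunit.

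RNA was sequenced from hearts of embryos of brown leghorn chicken (Gallus gallus). Eggs were incubated at 37 °C for 24 h and then received 20 µl through the air sac, either phosphate-buffered saline (control) or spermine NONOate at 10 µM, a donor that releases nitric oxide (NO) and leaves spermine. Hearts were taken after 45 h of incubation, and 10 hearts were pooled in each group for its single library, the control library (saline) and the NO library (donor). No group received spermine alone, so NO and spermine cannot be told apart. With 1 library per group no difference has a replicate check or a test, and each 95% interval, given in brackets behind a level, reflects estimation within a library and not the spread between pools.

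In the proteasome, a barrel-shaped core particle of stacked alpha and beta rings holds the proteolytic sites inside. A regulatory particle caps the core: its base, a ring of ATPases with scaffold subunits, unfolds substrates and feeds them through the gate of the alpha ring, and its lid removes the ubiquitin chains. Core and regulatory subunits are needed in fixed proportions in the complex, and heart muscle depends on the proteasome to turn over damaged and contractile proteins.

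Most proteasome genes differed little between the libraries, and slightly more of them were higher than lower in the NO library. Each difference is the log2 of the NO value over the control value, after 1 FPKM was added to both. Folds were taken on the same scale, so for low genes they fall short of the ratio of the printed FPKM. None of the 37 genes was at least 1.5-fold higher (0 of 37), against 9.59% of the 10824 measured genes. At least 1.5-fold lower were 5 of 37 (13.5%), against 22.4% of measured genes. The other 32 of 37 (86.5%) lay within 1.5-fold, against 68.1% of measured genes. Among genes whose mean reached 50 FPKM, where 27 of the proteasome genes lie, 23 of 27 (85.2%) were within 1.5-fold, against 69.7% of 1312 measured genes. There 4 of 27 were at least 1.5-fold lower, against 232 of 1312, and 0 were higher by that fold, against 166.

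The median log2 difference was 0.20 for the proteasome genes (mean 0.03) and −0.11 for all measured genes (mean −0.17). Of the 37 genes, 23 (62.2%) were above 0, against 41.3% of measured genes. From 50 FPKM up, 17 of 27 (63%) were above 0, against 52.3%. The medians there were 0.23 for the proteasome genes and 0.03 for measured genes. The SD of the differences across genes was 0.42 for the proteasome genes and 0.74 for all measured genes. The summed level of the 37 genes was 3968 FPKM in the control library and 4187 FPKM in the NO library, which is 0.814% and 0.781% of all FPKM. Trimmed mean scaling raised the NO values by 0.14 on the log2 scale and upper quartile scaling by 0.17, before 1 FPKM was added. Differences of low genes therefore rose by less. The proteasome median was then 0.34 and 0.37 beside an all-gene median of 0.01 and 0.04. The counts moved. After trimmed mean scaling 3 of 37 genes (PSMA2, PSMD10 and PSMB3) were at least 1.5-fold higher, against 12.94% of measured genes. After upper quartile scaling 4 of 37 (with PSMC6) were, against 13.95%. At least 1.5-fold lower after either were 2 of 37 (PSMD11 and PSMD2), against 18.04% and 17.17% of measured genes.

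**Figure D1:**
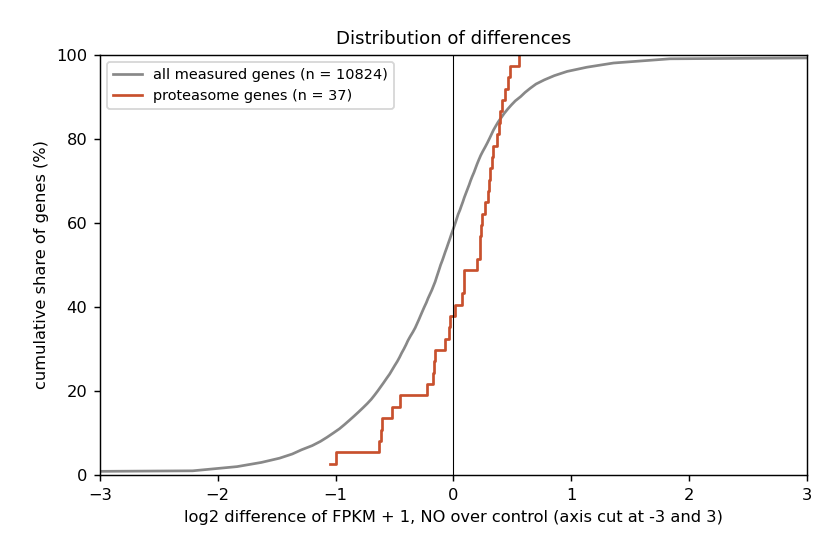
Cumulative share of genes (vertical axis, %) by log2 difference of FPKM + 1, NO over control (horizontal axis), for the 37 proteasome genes (orange steps) and all 10824 measured genes (grey line). The proteasome curve lies to the right of the grey line over most of its length, with its median at 0.20 against −0.11, and it ends before a 1.5-fold increase.

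The deposited intervals of the libraries did not overlap for 29 of the 37 genes (78.4%), against 70.9% of measured genes. In that count 20 proteasome genes were higher in the NO library (background 27.4%) and 9 were lower (background 43.6%). From 50 FPKM up, 17 of 27 proteasome genes were apart and higher, against 584 of 1312 measured genes. Apart and lower were 8 of 27, against 545 of 1312. Fragments implied by the interval widths ran from 316 to 8367 per proteasome gene in the control library and from 475 to 17037 in the NO library. These numbers need not be read counts and did not follow level. PSMB7, at 285 and 360.4 FPKM, implied 1777 and 2025 fragments, and PSMB4, at 235 and 151 FPKM, implied 6513 and 6975. Where intervals are narrow, an interval apart needs only a small difference: PSMC1 had intervals apart at a log2 difference of 0.09.

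Most markers of cell types differed more between the libraries than any proteasome gene. All 8 heart muscle markers were measured, so the labelled tissue was present in both libraries, and they summed to 2359 FPKM in the control library and 15412 FPKM in the NO library. Of these 8, 7 were at least 1.5-fold higher (87.5%, against 9.59% of all measured genes). The exception was NKX2-5, a heart transcription factor, at 79.99 and 95.2 FPKM and a log2 difference of 0.25. The 5 measured neural markers summed to 73.7 and 5.09 FPKM, the 3 endoderm markers to 474 and 49.3 FPKM and the 4 blood markers to 261 and 3399.5 FPKM. All neural and endoderm markers were at least 1.5-fold lower (100% each, against 22.4%). All blood markers were at least 1.5-fold higher (100%, against 9.59%). No measured marker was listed at 0. Of 8 proliferation genes, 2 were at least 1.5-fold lower (MCM5 and MCM3), which is 25% against 22.4% of all measured genes. By the same fold 0 were higher, against 9.59%. CDK1, at 0.31, was the 1 of 8 above 0 (12.5%, against 41.3% of all measured genes). The median of the proliferation genes was −0.27. In pooled tissue, fewer cells of a type and less RNA per cell cannot be told apart, and the part of the makeup of the pools in the proteasome differences was not tested.

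**Figure D2:**
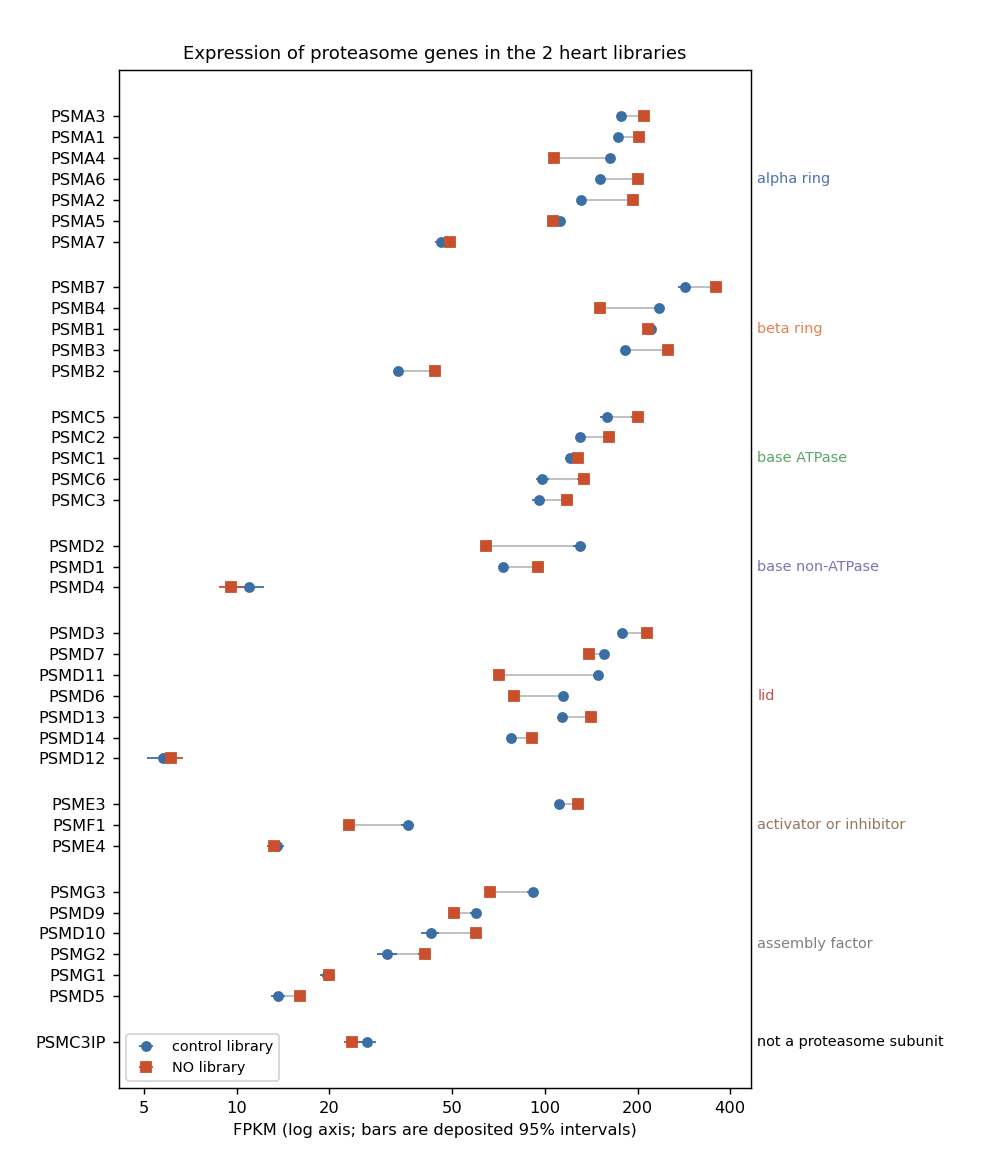
Level of each proteasome gene in FPKM (log axis) in the control library (blue circles) and the NO library (orange squares), grouped by role, with the deposited 95% intervals as bars. Most pairs of points lie close together, and PSMD11 and PSMD2 have the longest lines between them.

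The alpha ring was higher in the NO library in 5 of 7 measured genes, with a median log2 difference of 0.23. Above 0 were 41.3% of all measured genes, and 52.3% of those with a mean of at least 50 FPKM. PSMA2 had the highest difference of all 37 genes: it reached 131 FPKM (127 to 135) with saline and 193 FPKM (189 to 197) with the donor, a log2 difference of 0.56 (0.50 to 0.61). This was just short of 1.5-fold, at 1.47-fold. PSMA6 went from 151 FPKM with saline to 200.5 FPKM with the donor, a log2 difference of 0.41 (0.36 to 0.46), and pairs of levels below keep this order. PSMA3, the most abundant alpha gene by its mean, was at 177 and 209.997 FPKM, and PSMA1 at 173 and 203 FPKM, and their log2 differences were near each other at 0.24 and 0.23.

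PSMA4 was the alpha gene at least 1.5-fold lower. It measured 163 FPKM (158 to 168) with saline and 107 FPKM (104 to 110.3) with the donor, a log2 difference of −0.60 (−0.66 to −0.54). It was less than 1.5-fold lower after trimmed mean scaling (−0.46), after upper quartile scaling (−0.43) and against its chromosome size class (−0.56). PSMA5 was at 112 and 106 FPKM with overlapping intervals, and its small difference of −0.07 turned positive under 3 of 10 alternatives. PSMA7 was the least abundant alpha gene, at 46.2 and 49.2 FPKM, also with overlapping intervals. In the control library PSMA4 was at 1.25 times the level of PSMA2 (1.19 to 1.30), and in the NO library at 0.556 times (0.535 to 0.576). Such a ratio of FPKM within a library does not depend on scaling between libraries; this pair and those below were chosen after their values were seen.

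The beta ring had 3 of 5 measured genes higher, against 41.3% of all measured genes and 52.3% of those from 50 FPKM up. Its median was 0.34. PSMB7, the subunit with trypsin-like activity, was the most abundant proteasome gene in both libraries, at 285 FPKM (272 to 299) and 360.4 FPKM (344 to 376), a log2 difference of 0.34 (0.24 to 0.43). It is the sole catalytic beta subunit among the measured genes. PSMB3, a structural beta subunit, was at 183 and 251 FPKM, with the highest log2 difference of this ring at 0.46 (0.40 to 0.52). PSMB2 was the lowest in level, at 33.4 and 43.9 FPKM, with a log2 difference of 0.38 (0.34 to 0.43).

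PSMB4 was the beta gene at least 1.5-fold lower. It measured 235 FPKM (229 to 240.5) with saline and 151 FPKM (147 to 155) with the donor, a log2 difference of −0.63 (−0.68 to −0.58). Under the same 3 alternatives it too was less than 1.5-fold lower, at −0.49, −0.46 and −0.42. PSMB1 was at 221 and 216 FPKM with overlapping intervals, and its sign changed under 2 of 10 alternatives. PSMB4 stood at 1.28 times PSMB3 in the control library (1.23 to 1.34) and at 0.601 times in the NO library (0.581 to 0.621), so the order of the levels of these structural subunits was exchanged.

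The ATPases of the base had the most even differences of the role groups. All 5 measured genes were higher in the NO library with intervals apart. So were 27.4% of all measured genes, and 584 of the 1312 with a mean of at least 50 FPKM. The log2 differences of the 5 ATPase genes ran from 0.09 to 0.44 around a median of 0.31. PSMC6 had the largest, from 98.3 FPKM (93.4 to 103) to 134 FPKM (128 to 139.8), a log2 difference of 0.44 (0.34 to 0.54). PSMC5, the most abundant ATPase gene, measured 159 and 200.1 FPKM, which is 0.33 on the log2 scale (0.23 to 0.42). PSMC1 had the smallest, at 121 and 129 FPKM. PSMC2, at 130.4 and 162 FPKM, and PSMC3, at 95.7 and 118 FPKM, lay between them with log2 differences of 0.31 and 0.30. The ATPase levels spanned a 1.66-fold range in the control library and a 1.70-fold range in the NO library, without PSMC4, which matched no row. The alpha ring spanned 3.84-fold and 4.27-fold, but this range rests on PSMA7 alone, at 46.2 and 49.2 FPKM. The next lowest alpha gene, PSMA5, was at 112 and 106 FPKM.

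**Figure D3:**
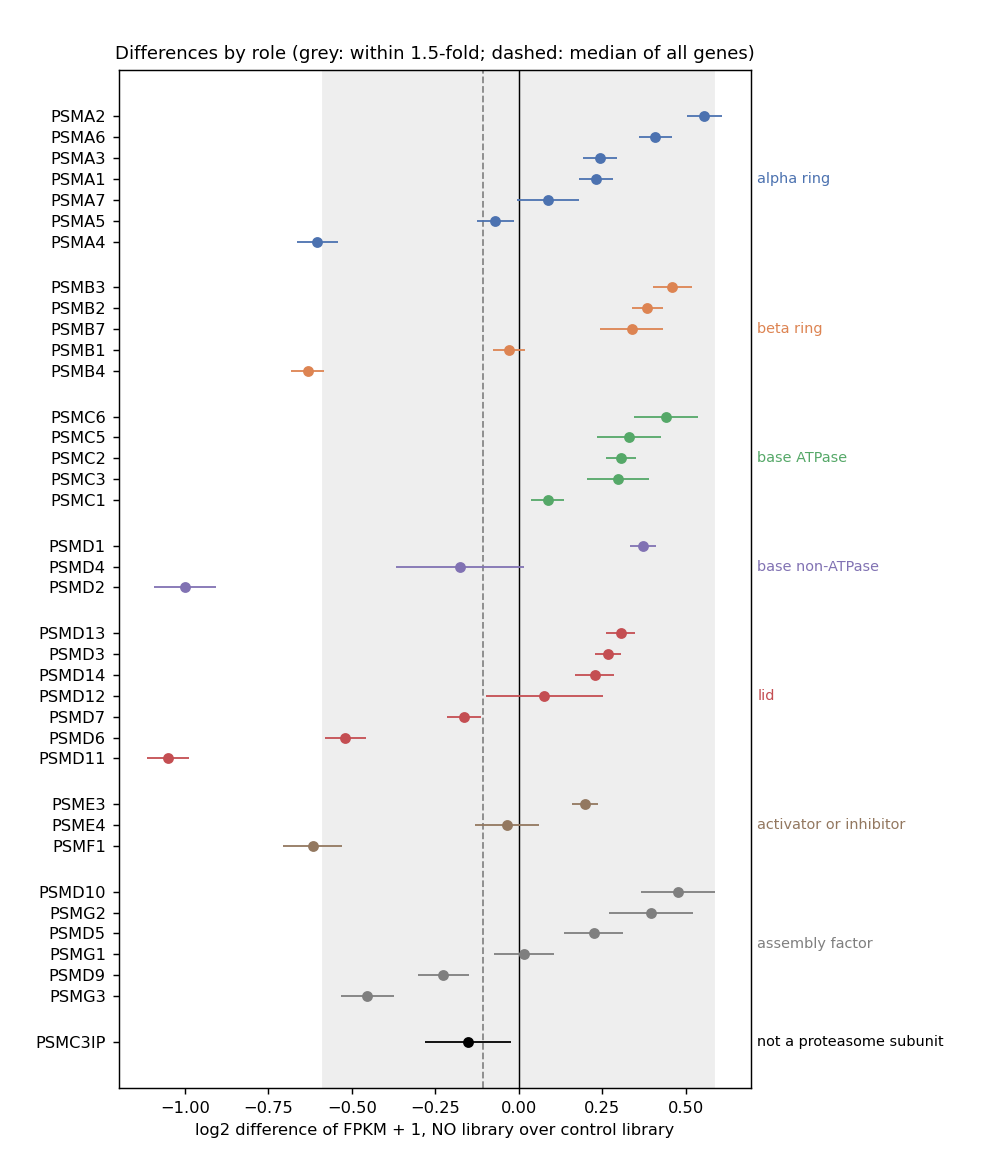
Log2 difference of FPKM + 1, NO over control, for each proteasome gene by role, with combined 95% intervals as bars; the grey band is within 1.5-fold and the dashed line is the median of all measured genes at −0.11. The 5 ATPases of the base lie to the right of 0, while PSMD2 and PSMD11 stand apart at −0.998 and −1.05.

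The other base subunits differed from each other. PSMD2, the scaffold subunit that binds ubiquitin shuttle factors and the deubiquitinase USP14, measured 129.8 FPKM (124 to 136) with saline and 64.5 FPKM (61.5 to 67.5) with the donor, a log2 difference of −0.998 (−1.09 to −0.91). With 1 FPKM added to both values it was 1.998-fold lower, just short of 2-fold. With 0.1 FPKM added instead it was past 2-fold lower, at −1.01. PSMD1, the other large scaffold of the base, was at 73.1 FPKM (71.4 to 74.7) and 94.8 FPKM (93.3 to 96.4), a log2 difference of 0.37 (0.33 to 0.41). The level of PSMD2 was 1.78 times that of PSMD1 (1.69 to 1.87) in the control library and 0.68 times (0.647 to 0.714) in the NO library. PSMD4, a ubiquitin receptor, was at 11.0016 and 9.62 FPKM with overlapping intervals, and its log2 difference of −0.18 turned positive under 1 of 10 alternatives.

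The lid held the largest difference. PSMD11, a lid subunit that clamps the regulatory particle to the core, measured 148 FPKM (144 to 153) with saline and 71.2 FPKM (68.9 to 73.5) with the donor, a log2 difference of −1.05 (−1.11 to −0.99). With 1 FPKM added, PSMD11 was the single proteasome gene at least 2-fold lower (1 of 37, against 10.3% of measured genes). By that measure 0 of 37 were at least 2-fold higher (against 3.65%). The level of PSMD11 was 1.30 times the median of the other lid genes in the control library and 0.618 times in the NO library. Both PSMD11 and PSMD2 were at least 1.5-fold lower under all 10 alternatives that recompute single genes, although PSMD11 was less than 2-fold lower after trimmed mean scaling, after upper quartile scaling and against its chromosome size class.

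The other lid genes lay within 1.5-fold. PSMD6 was lower, at 115 FPKM (111 to 118) and 79.7 FPKM (77.3 to 82.1), a log2 difference of −0.52 (−0.58 to −0.46). PSMD13 had the highest difference among the lid genes with PSM symbols, at 114 and 141 FPKM and 0.31 (0.26 to 0.35) on the log2 scale. PSMD3, the most abundant lid gene, was at 178 and 215 FPKM, and PSMD14, the deubiquitinase of the lid, at 77.7 and 91.1 FPKM, so both were higher, by 0.27 and 0.23 on the log2 scale. PSMD7, the partner of PSMD14, was at 156 and 139 FPKM, and its difference of −0.16 turned positive under 2 of 10 alternatives. PSMD12 had the lowest level of the proteasome genes, at 5.76 and 6.13 FPKM with overlapping intervals. This was 0.05 and 0.07 times the lid median, and the part of its transcript model in so low a level was not tested. The lid's median difference, 0.08, and its mean, −0.12, have opposite signs.

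As a whole, the regulatory particle had a median of 0.23 but a mean of −0.01, again of opposite sign, and the core had a median of 0.24 and a mean of 0.11. Of the 15 regulatory particle genes 10 were above 0, and of the 12 core genes 8 were. The share was 41.3% for all measured genes and 52.3% for those from 50 FPKM up. The median level of the core genes was 1.47 times that of the regulatory particle genes in the control library and 1.67 times in the NO library.

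Among proteins that bind the core from outside, PSMF1 was lower and the activators differed little. PSMF1, the inhibitor PI31 of the core particle, measured 35.9 FPKM (34.3 to 37.6) with saline and 23.1 FPKM (22.1 to 24.1) with the donor, 1.53-fold lower and a log2 difference of −0.62 (−0.70 to −0.53). With a pseudocount of 5, after either scaling or against its chromosome size class it was less than 1.5-fold lower. PSME3, a nuclear activator that opens the core without ubiquitin, was at 111 FPKM (109 to 114) and 128 FPKM (126 to 129.9), a log2 difference of 0.20 (0.16 to 0.24). PSME4, the activator PA200, was at 13.5 and 13.2 FPKM with overlapping intervals and a log2 difference of −0.04, which turned positive under 2 of 10 alternatives.

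Assembly factors differed in both directions, with 4 of 6 measured genes above 0 (against 41.3% of all measured genes) and a median of 0.12. PSMD10 (gankyrin), a chaperone of the base, was at 42.6 FPKM (39.8 to 45.4) and 59.6 FPKM (57.1 to 62.2), a log2 difference of 0.48 (0.36 to 0.59). PSMG3, which helps to form the alpha ring, was the most abundant assembly gene and the lowest in difference, at 91.6 FPKM (87.8 to 95.4) and 66.6 FPKM (64.1 to 69.1), −0.45 (−0.53 to −0.37) on the log2 scale. PSMG3 was at 2.15 times the level of PSMD10 (1.98 to 2.32) in the control library and 1.12 times (1.05 to 1.18) in the NO library. PSMG2, which pairs with PSMG1 as an alpha ring chaperone, had a log2 difference of 0.39 (0.27 to 0.52), while PSMG1 was at 19.7 and 19.9 FPKM. The base chaperones PSMD5 and PSMD9 lay at 0.22 and −0.23. PSMC3IP, outside the proteasome, was at 26.5 and 23.7 FPKM with overlapping intervals.

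The order of the levels was largely kept. Across the 37 genes, which share their libraries and are not independent replicates, Spearman's rho between the libraries was 0.92 and Pearson's r of log2(FPKM + 1) was 0.96, against 0.90 and 0.92 across all measured genes. PSMB7 was at the 98.03 percentile of measured genes in the control library and at 98.4 in the NO library, and PSMD12 at 32.5 and 38.6.

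The 5 lower genes lie on chromosomes 9, 10, 20, 25 and 27, and none lies on chromosomes 1 to 5. On the macrochromosomes (1 to 5 and Z) 0 of 14 proteasome genes were at least 1.5-fold lower, against 15.2% of measured genes there. The counts were 2 of 4 on the intermediate chromosomes (6 to 10), against 20.2%, and 3 of 18 on the microchromosomes (11 and up), against 28.9%. PSMD2 (ENSGALG00000006294) is annotated on chromosome 9 from 15363725 to 15369726 in galGal4, and PSMD11 (ENSGALG00000024112) on chromosome 27 from 1502735 to 1508639. PSMB4 (ENSGALG00000000905) is on chromosome 25 from 2086672 to 2089191, PSMA4 (ENSGALG00000003046) on chromosome 10 from 3146802 to 3151679 and PSMF1 (ENSGALG00000000259) on chromosome 20 from 10210994 to 10216774. PSMA2 (ENSGALG00000019598), the gene with the highest difference, is on chromosome 2 from 51746584 to 51752437.

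On the macrochromosomes (1 to 5 and Z), 12 of 14 proteasome genes were above 0, against 47.3% of the 5067 measured genes there, and their median was 0.30 beside −0.03. On the microchromosomes (11 and up) 9 of 18 were above 0, against 33.9% of 3542 genes, with medians of −0.04 and −0.22. On the intermediate chromosomes (6 to 10) 2 of 4 were above 0, against 45.7% of 1693 genes, with medians of −0.19 and −0.05. Measured genes as a whole were thus also lower on the microchromosomes, and the part of that shift in the proteasome values was not tested. Each gene was also set against the median of its class (genes outside these classes, PSMA5 among them, against the median of all genes). Then 2 of 37 proteasome genes were at least 1.5-fold higher (PSMB3 and PSMB2), against 12.13% of measured genes. At least 1.5-fold lower were 2 of 37 (PSMD2 and PSMD11), against 18.36%.

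**Figure D4:**
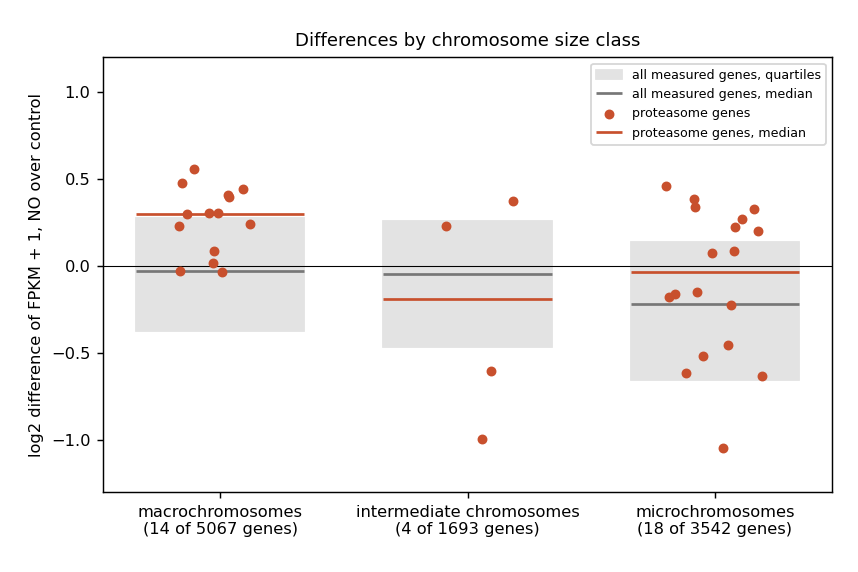
Log2 difference of FPKM + 1, NO over control (vertical axis), for proteasome genes (orange points, sideways spread for display only) by chromosome size class, with their median (orange line) and the median and quartiles of all measured genes (grey line and box); PSMA5, on an unplaced scaffold, is left out. Points on the macrochromosomes crowd above 0, while those on the microchromosomes run from −1.05 to 0.46.

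Neighbouring genes were read beside the members. PSMD2 is followed after 1505 bases by EIF4G1, a translation initiation scaffold, with levels of 95.3 and 43.7 FPKM and a log2 difference of −1.11. PSMD11 is flanked at 6886 bases by FZD2, a Wnt receptor, at 59.1 and 24.2 FPKM (−1.25), and at 2478 bases by MYO1D, at 5.39 and 4.67 FPKM (−0.17). PSMA2 lies 320 bases from MRPL32, a mitochondrial ribosomal protein gene, at 28.1 and 43.8 FPKM (0.62). The genes next to PSMF1 did not pass the filter on low values. Of the measured genes next to the other lower members, 7 of 7 were below 0, as were 6358 of the 10824 measured genes. They ran from −0.03 for CHRNA5, next to PSMA4, to −1.25 for FZD2. Next to all members below 0, 18 of 21 measured genes were below 0, beside the same 6358 of 10824. Their median was −0.39, beside −0.11 for all measured genes. Next to members above 0, 14 of 34 measured genes were above 0, beside the 41.3% of all measured genes, with a median of −0.08. Next to any member, 38 of 55 were below 0, again beside 6358 of 10824. On the microchromosomes, where 9 members below 0 lie, 33.9% of measured genes were above 0. The part of chromosome size class in the neighbour counts was not tested.

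Some neighbours differed in the direction opposite to a member. PSMB2, with a log2 difference of 0.38, lies between C1orf216 at −1.74 and TFAP2E at −2.60. PSMC5, with 0.33, overlaps the annotated spans of FTSJ3 at −0.85 and SMARCD2 at −0.97. Strand is not recorded in the tables, so reads cannot be assigned with certainty where spans overlap, which touches PSMA7, PSMC3, PSMC5, PSMD1 and PSMD4.

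Genes of other proteasome subunits and of associated factors, outside the PSM symbols, also lay mostly within 1.5-fold. In this list ADRM1 and SHFM1 are subunits, and most others are associated factors or enzymes. Of 14 measured genes, 1 was higher and 1 lower by 1.5-fold or more (7.14% each, against 9.59% and 22.4% of all measured genes). Their median log2 difference was 0.004. POMP, the maturation factor of the core, measured 99.8 and 122 FPKM, which is 0.29 on the log2 scale (0.21 to 0.38). ADRM1, a ubiquitin receptor of the base, was at 105 and 134 FPKM (0.34, from 0.29 to 0.40), and SHFM1, the smallest lid subunit, at 82.96 and 116 FPKM (0.48, from 0.42 to 0.54). Of the 14 genes, 7 were above 0 (50%, against 41.3% of all measured genes) and 7 below. PAAF1, which binds the regulatory particle, was among the lower ones with intervals apart, at 12.7 and 9.64 FPKM (−0.36, from −0.52 to −0.20).

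The proteasome-bound deubiquitinases USP14 and UCHL5 had log2 differences of 0.18 and −0.02. ZFAND2A, a stress-induced factor of the regulatory particle, was at 20.7 FPKM (18.7 to 22.7) and 32.4 FPKM (30.5 to 34.4), 1.54-fold higher. AKIRIN2, an adaptor for the import of proteasomes into the nucleus, was at 146 FPKM (137 to 154) and 84.3 FPKM (79.2 to 89.4), 1.72-fold lower.

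Genes that tag proteins or deliver them to the proteasome differed in both directions. Of 10 measured ubiquitin and conjugation genes, 1 was at least 1.5-fold higher (10%, against 9.59% of all measured genes) and 0 lower (against 22.4%). The higher one was UBE2D1, a conjugating enzyme, at 30.7 and 56.3 FPKM and a log2 difference of 0.85 (0.76 to 0.94). Of 12 shuttle and segregase genes, 2 were at least 1.5-fold lower (16.7%, against 22.4% of all measured genes) and 0 higher (against 9.59%). The lower ones were UBQLN4, a ubiquitin-binding shuttle, at 47.7 and 21.3 FPKM (−1.13, from −1.18 to −1.07), and VCP, the ATPase that extracts ubiquitinated proteins, at 138 and 91.1 FPKM (−0.60, from −0.63 to −0.56).

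Transcription factors known to act on proteasome genes had a median of −0.34 over 12 measured genes. Of these, 3 were above 0 (25%, against 41.3% of all measured genes) and 2 were at least 1.5-fold lower (16.7%, against 22.4%). NFE2L1, which drives proteasome gene transcription when proteasome activity is low, was at 40.1 FPKM (38.5 to 41.7) and 25.2 FPKM (24.3 to 26.1), 1.57-fold lower. HSF1, the heat shock factor, was at 20.3 and 12.4 FPKM, 1.59-fold lower, with a wide interval of its log2 difference from −0.96 to −0.37. NFE2L2, the factor of the antioxidant response, measured 9.62 and 12.8 FPKM, which is 0.38 on the log2 scale (0.27 to 0.49).

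Ubiquitin ligases of muscle held the largest differences of the pathway. TRIM55 (MuRF2), a sarcomere-bound ligase, measured 37.6 FPKM with saline and 173 FPKM with the donor, 4.50-fold higher. ASB2, a substrate receptor of a muscle ligase, was at 4.12 and 13.2 FPKM, 2.77-fold higher with 1 FPKM added to both. TRIM63 (MuRF1) was at 3.34 and 10.9 FPKM, 2.74-fold higher by the same measure. STUB1, a ligase that works with chaperones, was 1.66-fold lower, at 46.7 and 27.8 FPKM. Of the 11 measured genes of this list, 3 were thus at least 1.5-fold higher (27.3%, against 9.59% of all measured genes). By the same fold 1 was lower (9.09%, against 22.4%). The remaining 7 of 11 lay within 1.5-fold, against 68.1% of all measured genes. They were FBXO32, FBXO30, RNF207, MDM2 and the ligase complex subunits CUL1, CUL3 and SKP1, so not all of them are ligases of muscle. Heart muscle markers were higher in the same library, with a median log2 difference of 2.65 over all 8 and a summed level of 2359 and 15412 FPKM, and their part in the ligase values was not tested. Over all 59 measured pathway genes outside the PSM symbols, 5 were higher (8.47%) and 6 lower (10.2%) by 1.5-fold or more, against 9.59% and 22.4% of all measured genes, and the median was 0.01.

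**Figure D5:**
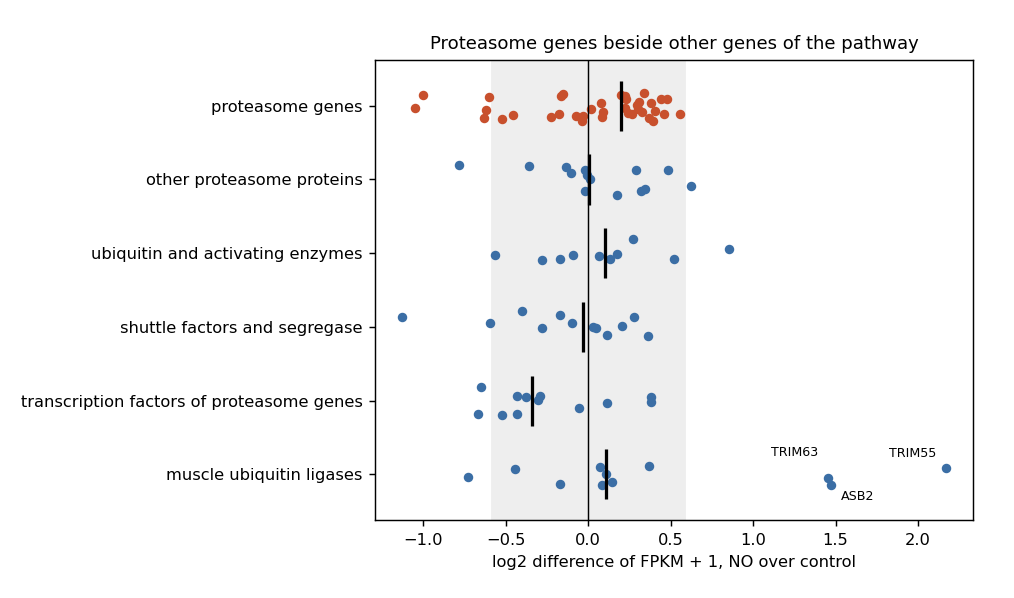
Log2 difference of FPKM + 1, NO over control (horizontal axis), for the 37 proteasome genes (orange) and 5 lists of other pathway genes (blue), 1 point per gene with sideways spread for display only; black bars are medians and the grey band is within 1.5-fold. TRIM55, ASB2 and TRIM63 lie far to the right of every proteasome gene.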

How the data were processed

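RNA was sequenced from 2 pools of embryonic chicken hearts, 1 library per group. Per the series design text, the authors mapped reads with STAR (2.4.2a) against the chicken build galGal4, annotated by Ensembl release 81, and obtained levels with Cufflinks (2.2.1); library selection and strandedness are not given in the sources used here. The deposited values are the authors' FPKM with 95% intervals for 17108 genes. FPKM is relative to the fragments mapped in a library, so a few abundant genes can shift all others, and it rests on the annotated transcript models. The FPKM of all genes did not sum to the same total in both libraries, and scaling to equal totals was not run.

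Tables were joined by Ensembl identifier and rows of a symbol summed with Python 3.11.15, numpy 2.4.6 and pandas 2.3.3. A gene needed a mean of 1 FPKM or more. Log2 ratios used a pseudocount of 1, which understates differences of low genes, and their intervals combine both deposited half-widths. Fragments were implied from the interval width, taken as 2 SD on each side. They need not be read counts, and they summed to 18262183 and 28802333. There was no test; genes were counted past 1.5-fold or 2-fold. The counting was tested on simulated libraries. Start positions were raised by 1, since the tables count from 0.

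Genes named were the most abundant, the highest and the lowest of each role, every gene past 1.5-fold, and a fixed set of pathway genes; neighbours, ratios and further members were added after values were seen. Members and lists were chosen with earlier results of these data known. Alternatives were pseudocounts of 0.1 and 5, other filters on low values, 3 scalings, chromosome size classes, the highest row of a symbol, a minimum of 50 implied fragments and narrower member sets. No sequences were used here.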

Additional observations from a re-analysis of the deposited data

How the results depend on the processing

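The counts and medians of the proteasome genes held with no filter, a mean of at least 5 FPKM, the highest row of a symbol, a minimum of 50 implied fragments, and rescaling without the 20 most abundant and mitochondrial genes. Without PSMC3IP the counts held and the median was 0.21; with the core and regulatory particle alone, which leaves out PSMF1, 4 genes were at least 1.5-fold lower and the median was 0.23. With a pseudocount of 0.1, 2 proteasome genes (PSMD11 and PSMD2) were at least 2-fold lower, as were 1488 of the 10824 measured genes. With a pseudocount of 5, counts over all genes fell to 580 and 1427 past 1.5-fold (higher and lower) and 201 and 484 past 2-fold, and pathway genes to 3 at least 1.5-fold lower and 1 at least 2-fold higher, since a larger pseudocount shrinks low genes. The scalings moved counts and medians together, by construction. After trimmed mean scaling, upper quartile scaling and setting against chromosome size class, in that order, proteasome genes at least 1.5-fold higher numbered 3, 4 and 2. Those at least 1.5-fold lower numbered 2, 2 and 2 and at least 2-fold lower 0, 0 and 0. The proteasome medians were 0.34, 0.37 and 0.27. Of all measured genes, 12.94%, 13.95% and 12.13% were then at least 1.5-fold higher and 18.04%, 17.17% and 18.36% at least 1.5-fold lower. At least 2-fold lower were 898, 856 and 871 of the 10824 measured genes. Pathway genes at least 1.5-fold lower numbered 3, 2 and 2 and at least 2-fold lower 0, 0 and 0, and their median was 0.14 and 0.17 under the first 2. The median of all genes was 0.04 after upper quartile scaling. In the same order, medians were 0.48, 0.51 and 0.55 for the beta ring, −0.05, −0.02 and 0.04 for the non-ATPase base, 0.20, 0.23 and 0.27 for the lid and 0.25, 0.28 and 0.23 for assembly factors. Under the first 2 they were 0.37 and 0.40 for the alpha ring, 0.44 and 0.48 for the ATPases and 0.09 and 0.12 for the activators and inhibitor, so the base and activator medians turned positive in part.

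No paired analysis was possible because each group has 1 library. Implied fragments were fewest for PSMD4 and PSMD12, at 316 and 334 in the control library. Pools were not replicated, so the spread between pools is unknown.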
